A study of Mus musculus with 12 samples.

Results

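The NFI and SOX transcription factors examined here were Nfia, Nfib, Nfix, Sox9, Sox2, Sox4, Sox11 and Sox8, 8 of the 31053 gene symbols in the count table. The rule took the rows of these genes by name and used no measured value, but it was written with earlier results of these data known. Droplet-based single-cell RNA sequencing had been run on wild type mouse striatum, of a strain that the labels give as mixed and the methods of the study as C57BL/6Jax (males) for brain tissue, after magnetic enrichment of cells that carry ACSA2, an astrocyte surface antigen. Per the labels the 12 samples came from 4 libraries, each sequenced in several runs that the authors merged. Mice were early postnatal in 2 of these libraries and 3 months old (3m) in the other 2, and a library counted as 1 replicate. The titles and the age tags of the postnatal libraries disagreed. Replicate 1 had day 7 in its title and day 3 in its tag, and replicate 2 the reverse. The study itself names only postnatal day 3 for its early striatal single-cell data. Both libraries therefore formed 1 group, and whether they differ in day could not be examined. Per the methods of the study, tissue of several animals was combined for each preparation and the subventricular zone was left out of the dissection. The study describes its striatal preparations of each age as independent, but its text does not say which of them these libraries are. The p-values measure the spread between these libraries only. The edgeR tests below draw the spread of each gene toward that of other genes. A p therefore does not rest on a gene's own spread alone.

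NFI proteins bind DNA as dimers and take part in the switch from neurogenesis to gliogenesis. Nfia is an early factor of that switch, Nfib and Nfix are its close relatives, and all 3 are known for roles in astrocyte differentiation. SOX proteins bind DNA through an HMG box. Sox9 and Sox8 are SoxE factors, and Sox9 acts in glial specification and remains in astrocytes, while Sox8 works with Sox10 in the oligodendrocyte lineage. Sox2 is a SoxB1 factor of neural stem and glial cells. Sox4 and Sox11 are SoxC factors, known from immature neural cells.

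Cells were kept with at most 10% mitochondrial UMIs (unique molecular identifiers, each standing for 1 captured RNA molecule) and at least 500 detected genes, which left 3163 of 4245 barcodes. Each cell was placed in a class by 10 marker lists that held none of the 8 factors, and a cell needed 3 detected markers and a score at least 2 times that of every other class. Non-cycling astroglia-like cells numbered 316 and 416 in the postnatal libraries and 297 and 295 in the 3m libraries, with median depths of 8919, 11292.5, 6043 and 8479 UMIs. The 12 astroglia markers, which the gate itself used, summed to 12854 and 9600 CPM (UMIs per 1000000) in the postnatal sums and to 32768 and 32438 CPM at 3m, against 475 and 429 CPM in oligodendrocyte-like cells at that age. A cell with at least 3 UMIs of 10 cycling genes was called cycling and set apart. That gave 24 and 61 cycling astroglia-like cells in postnatal replicates 1 and 2, but only 1 and 5 at 3m, where 4 of the 5 carried a barcode that another library held with more UMIs. Oligodendrocyte-like cells (561 and 295) were examined at 3m only, since the postnatal libraries held 7 and 0. Oligodendrocyte precursor-like cells were examined in postnatal replicate 1 (50 cells) and 3m replicate 1 (45 cells), since the other libraries held 2 and 7. Postnatal replicate 2 and 3m replicate 2 shared 95 barcodes, against at most 2 in any other pair of libraries, and leaving out the holder with fewer UMIs changed no call of the 8 factors.

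All 8 factors are protein coding genes of the GRCm38 assembly. In the GENCODE annotation Nfia lies on chromosome 4 from 97772734 to 98118874 (+ strand), Nfib on chromosome 4 from 82290173 to 82705750 (- strand), and Nfix on chromosome 8 from 84699876 to 84800344 (- strand). These 3 genes have transcripts of up to 11, 12 and 11 exons. Sox2 (chromosome 3, 34650405 to 34652461, + strand), Sox4 (chromosome 13, 28948919 to 28953713, - strand) and Sox11 (chromosome 12, 27334264 to 27342574, - strand) each have 1 exon. Sox9 is on chromosome 11 from 112782224 to 112787760 (+ strand) and Sox8 on chromosome 17 from 25565892 to 25570686 (- strand), with up to 3 exons each. Sox2 lies inside Sox2ot, a noncoding gene of the same strand that is not a row of the table, so reads from Sox2ot over the Sox2 exon would be counted as Sox2.

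The promoters of Sox4 and Sox11 are shown because these genes had the largest differences between ages among the 8 factors. The 250 bases before each RefSeq transcript start are given on the gene's strand, from chr13:28953700-28953949 for Sox4 and chr12:27342719-27342968 for Sox11 (GRCm38.p6), with the NFI core TTGGC or its reverse complement GCCAA in capitals.
Sox4: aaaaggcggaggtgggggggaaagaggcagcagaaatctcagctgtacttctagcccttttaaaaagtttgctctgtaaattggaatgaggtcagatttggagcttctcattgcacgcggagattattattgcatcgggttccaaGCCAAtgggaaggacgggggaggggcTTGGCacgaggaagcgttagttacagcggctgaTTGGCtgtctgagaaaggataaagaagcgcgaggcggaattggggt
Sox11: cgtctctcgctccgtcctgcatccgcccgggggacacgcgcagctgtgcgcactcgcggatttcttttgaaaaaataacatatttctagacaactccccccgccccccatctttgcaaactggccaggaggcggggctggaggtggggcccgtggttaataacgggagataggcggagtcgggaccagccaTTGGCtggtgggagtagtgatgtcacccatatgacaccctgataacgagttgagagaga
The Sox4 window held 3 matches to TTGGC and the Sox11 window 1, on either strand, and 41.5% of the 32851 promoter windows of the RefSeq table held at least 1. In Sox4, 2 of the 3 matches overlapped a match to CCAAT, and so did the match in Sox11. CCAAT itself had 4 matches in Sox4 and 1 in Sox11, and 33.8% of all windows held it on either strand. ACAAT, the core of SOX sites, was in neither window, and 27.7% of all windows held it on either strand. These matches describe the letters and not binding.

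Levels were first compared between ages in non-cycling astroglia-like cells. Nfia, Nfix, Sox4 and Sox11 fell at 3m, Nfib, Sox9 and Sox2 had lower values that did not reach the threshold, and Sox8 had a higher value that did not reach it either. The threshold, here and below, required an adjusted p no greater than 0.05 (edgeR quasi-likelihood test, Benjamini-Hochberg over all genes tested) together with a log2 fold change of 1 or more in either direction. Thus 4 of the 8 factors were called lower and 0 higher, while 11.5% of the 11294 genes tested were called lower and 13.8% higher. The median log2 fold change of the 8 was -0.80, against 0.001 for all genes tested. Levels are given as CPM, the UMIs of a gene per 1000000 UMIs of the summed cells, before the TMM scaling of the fits. Without that scaling the median of all genes moved to -0.27, and 35.9% of all calls were higher ones, against 54.6% with it. The same 4 factors were called without it, and the fold change of every factor kept its sign.

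Nfia stood at 740.1 and 826 CPM in postnatal replicates 1 and 2 and at 290.3 and 355 CPM in 3m replicates 1 and 2. The ages did not overlap, and the mean fell from 783 ± 60.9 to 323 ± 46.0 CPM (SD, n = 2 libraries each). The fitted log2 fold change was -1.01 (SE 0.19, adjusted p = 0.00408, edgeR), just past the fold threshold. The Nfia call was lost without postnatal replicate 2 (log2 fold change -0.99, adjusted p = 8.26e-11), without 3m replicate 1 (-0.87, adjusted p = 0.101) and without 3m replicate 2 (-1.14, adjusted p = 0.0541), each in an edgeR fit that assumes the lone library of an age to vary like the other age.

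Nfix was at 506 and 472 CPM in the postnatal libraries and at 182 and 171 CPM in the 3m libraries. Its groups lay far apart relative to the gap within each, and the log2 fold change was -1.20 (SE 0.18, adjusted p = 0.00122, edgeR). Nfib gave 582 and 706 CPM against 322 and 380.3 CPM. The libraries of the 2 ages did not overlap for Nfib either, but its log2 fold change of -0.60 (SE 0.19, adjusted p = 0.0358, edgeR) missed the fold threshold.

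Sox4 showed the largest difference of the 8, with 286 and 331 CPM in the postnatal libraries and 31.7 and 14.0 CPM at 3m. The mean was 13.5-fold higher in the postnatal libraries, and the log2 fold change was -3.50 (SE 0.31, adjusted p = 0.000142, edgeR). The 3m libraries were unequal, so the size of this fold depends on which of them is used. Sox11, its SoxC relative, stood at 153 and 197 CPM against 35.7 and 21.8 CPM, with a log2 fold change of -2.34 (SE 0.24, adjusted p = 0.000243, edgeR). For both genes 3m replicate 1 was the higher of the 3m libraries. There, 5 of the 297 cells held 47 of the 70 Sox4 UMIs and also 23 of the 79 Sox11 UMIs. The summed level of the 12 astroglia markers was 18239 CPM in those 5 cells and 32992 CPM in the rest of that class, while the 12 neuron markers were at 119 and 116 CPM. In 3m replicate 2 the 5 cells with the most Sox4 held 12 of 36 UMIs.

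Sox9 was at 958 and 979.8 CPM in the postnatal libraries and at 649 and 632 CPM at 3m. The log2 fold change of -0.33 (SE 0.19, adjusted p = 0.202, edgeR) was not called, although the libraries did not overlap. Sox2 gave 809.7 and 858 CPM against 511 and 458 CPM, with a log2 fold change of -0.51 (SE 0.19, adjusted p = 0.0590, edgeR). Sox8 was at 52.6 and 31.9 CPM in the postnatal libraries and at 54.3 and 52.6 CPM at 3m. Its log2 fold change of 0.62 (SE 0.26, adjusted p = 0.0886, edgeR) rested on postnatal replicate 2, the low library, since it was 1.04 (adjusted p = 1.16e-06, edgeR) without postnatal replicate 1 and 0.23 (adjusted p = 0.329, edgeR) without postnatal replicate 2. CPM of 7 of the 8 factors was lower in both 3m libraries than in both postnatal ones, which was also true of 48.7% of all genes tested.

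**Figure D1:**
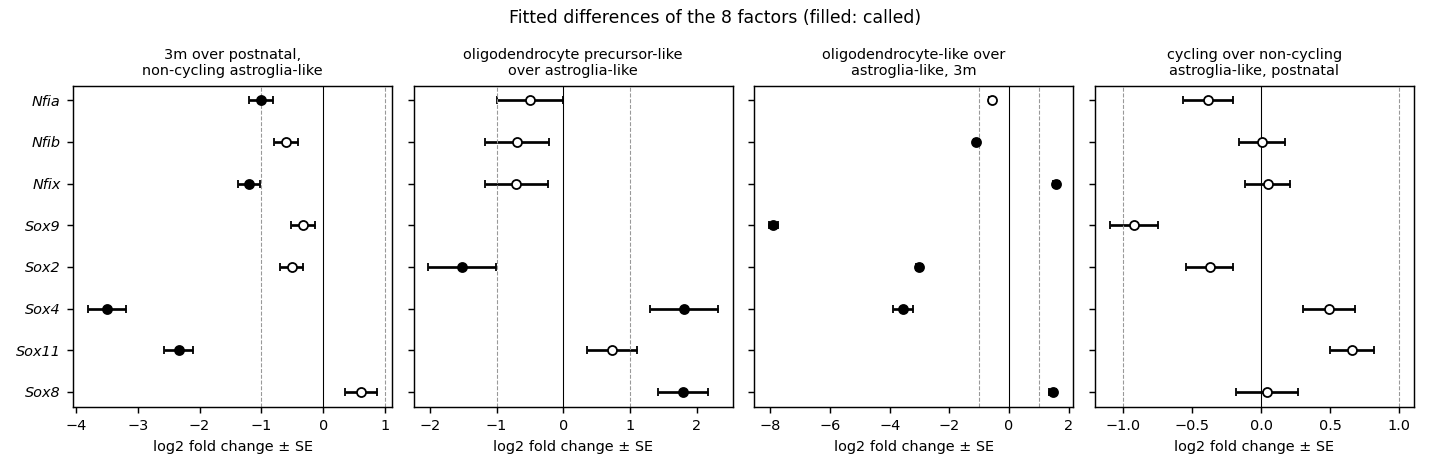
Log2 fold change ± SE (x axis) of each factor (y axis) in 4 edgeR comparisons, with filled points for called genes, dashed lines at the fold threshold and an x scale of its own in each panel. In the leftmost panel Sox4 at -3.50 and Sox11 at -2.34 stand apart from the other factors. The fitted values of Sox9 in precursor-like cells and of Sox11 in oligodendrocyte-like cells are left out because a library had 0 UMIs.

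Marker lists of several classes moved with age in the same sums. The 11 precursor markers summed to 251 and 435 CPM in the postnatal astroglia-like cells and to 137 and 127 CPM at 3m, with 8, 8, 9 and 8 of them found and Neu4 and Susd5 at 0 in all 4. The 12 neuron markers were at 47.2 and 54.8 CPM postnatally and at 116 and 98.6 CPM at 3m, with 11, 12, 11 and 8 found. The astroglia markers themselves were higher at 3m in both libraries, as given above. The part of these lists in the age differences of the 8 factors was not tested. The 12 oligodendrocyte markers together were at 297 and 153 CPM in the postnatal astroglia-like cells and at 984 and 864 CPM at 3m, where all 12 were found, against 6 and 10 in the postnatal libraries. Sox10, a factor of the oligodendrocyte lineage, had 0 UMIs in both postnatal astroglia-like sums and 7.24 and 4.68 CPM at 3m, which was 2.04% and 1.28% of its level in oligodendrocyte-like cells of the same library. Sox8 in astroglia-like cells was at 33.4% and 37.3% of its oligodendrocyte-like level and Nfix at 36.1% and 29.9%. Only 71, 128, 38 and 31 astroglia-like cells had no oligodendrocyte marker UMI, and the 3m ones summed to 165478 and 110207 UMIs. These cells were shallower than their class, with median depths of 1924, 7823, 4140.5 and 2034 UMIs. In these cells Nfia was at 631 and 942 CPM postnatally and 242 and 245.0 CPM at 3m, and it was the only factor called lower (log2 fold change -1.35, adjusted p = 0.00649, edgeR, 3843 genes tested). Sox4 was at 257 and 316 CPM against 187 and 54.4 CPM there (-0.81, adjusted p = 0.173, edgeR), with 31 and 6 UMIs at 3m. Sox11 was at 139 and 198 CPM against 139 CPM in 3m replicate 1 and 0 UMIs in 3m replicate 2, which allows up to 27.2 CPM, and it was not called (adjusted p = 0.414, edgeR). Nfix gave -0.83 (adjusted p = 0.0480, edgeR). The part of oligodendrocyte RNA in the levels and age differences of the 8 factors was not tested.

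Detection was compared after each cell was thinned to 2000 UMIs, since cells differed in depth and a deeper cell shows more genes. Cells under that depth, 59, 32, 26 and 39 in the 4 libraries, were left out. Nfia was then found in 71.6% and 79.9% of postnatal astroglia-like cells and in 41.3% and 44.1% of those at 3m. Unthinned, the shares were 82.6%, 92.3%, 70.0% and 76.3%, a narrower gap. Sox4 went from 35.4% and 46.1% to 2.95% and 2.73%, and Sox11 from 22.2% and 34.4% to 5.90% and 4.30%. Oligodendrocyte-like cells of the same 3m libraries, a class that holds little of either, had a mean of 0.263% for Sox4 and 0% for Sox11, at median depths of 9034 and 13211 UMIs. Sox9 was found in 72.4% and 82.8% of postnatal cells and in 64.6% and 64.1% at 3m. Sox8 was in 7.78% and 5.99% of postnatal cells and in 10.7% and 12.5% at 3m, and it was the 1 factor of the 8 without a lower share in both 3m libraries. A lower share in both was true of 40.2% of all genes tested. With 2 libraries per age an exact permutation test cannot give a two-sided p below 0.33, so shares were not tested.

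**Figure D2:**
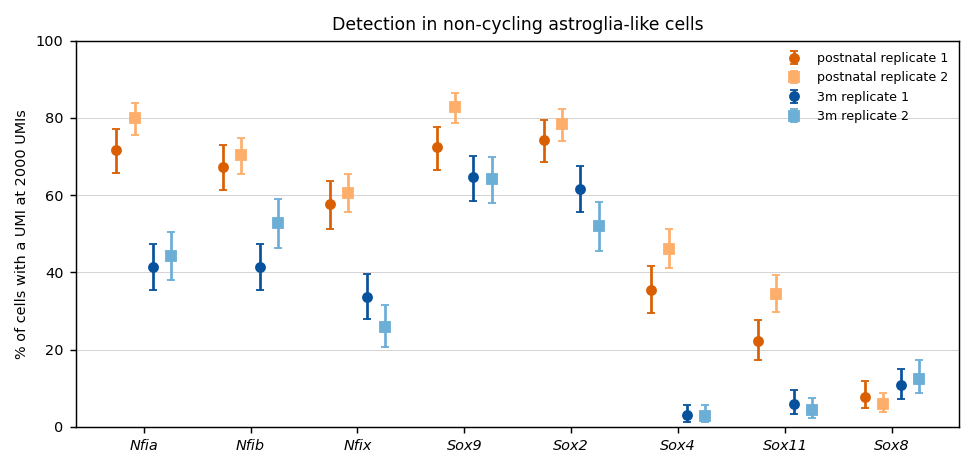
Percentage of non-cycling astroglia-like cells with at least 1 UMI of each factor after thinning to 2000 UMIs (y axis), by library, with 95% Clopper-Pearson intervals that cover counting error only. The 3m libraries lie below both postnatal libraries for every factor but Sox8, and Sox4 is below 3% in both.

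The NFI genes were also counted cell by cell. All 3 were found in 30.4% and 37.5% of postnatal astroglia-like cells thinned to 2000 UMIs and in 4.43% and 7.42% of those at 3m. None of the 3 was found in 5.06% and 5.47% of postnatal cells and in 23.6% and 19.5% at 3m. Sox4 or Sox11 was found in 47.9% and 63.3% of postnatal cells, and in 8.12% and 7.03% at 3m. Sox9 and Sox2 together were found in 55.6% and 65.9% of postnatal cells and in 41.3% and 33.6% at 3m. Joint shares depend on the shares of the single genes, and the joint shares expected from those were not computed. A missing gene in a thinned cell means that no UMI was drawn, not that the gene was off.

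**Figure D3:**
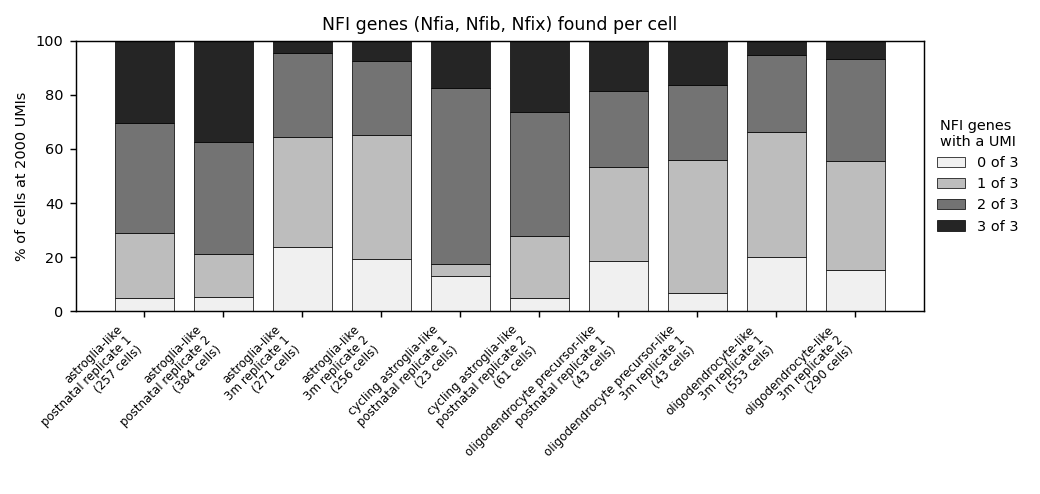
Stacked percentages (y axis) of cells with a UMI of 0, 1, 2 or 3 of the NFI genes Nfia, Nfib and Nfix after thinning to 2000 UMIs, for each class and library (x axis, with the number of cells). The dark segment of all 3 genes is 30.4% and 37.5% in postnatal astroglia-like cells and 4.43% and 7.42% at 3m.

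Relatives of the factors, from a list of 12 further NFI and SOX genes, were read in the same fit. Of the 9 that could be tested, 1 was called higher and 2 lower at 3m, and their median log2 fold change was -0.37. Sox3, a SoxB1 gene like Sox2, fell by 3.18 on the log2 scale (SE 0.36, adjusted p = 0.000367, edgeR), and Sox21, a SoxB2 gene, fell by 1.31 (SE 0.23, adjusted p = 0.00257, edgeR). Sox10 was the gene called higher, against postnatal sums with 0 UMIs. Sox5 missed the fold threshold (-0.78, SE 0.17, adjusted p = 0.00776, edgeR), and Sox1 (-0.37, SE 0.16) and Nfic (-0.09, SE 0.17) were not called. A further list held 10 genes reported as targets of such factors in neural cells. Of these, 7 could be tested, and 1 was called higher and 4 lower. Fabp7, a brain fatty acid binding protein, fell by 5.19 on the log2 scale (SE 0.36, adjusted p = 4.81e-05, edgeR), and Nes (nestin), Tead2 and Gfap were the other genes called lower. S100b, a calcium binding protein of mature astrocytes, rose by 2.49 (SE 0.57, adjusted p = 0.00860, edgeR). The postnatal libraries were unequal for 3 of these genes. Gfap was at 556 and 119 CPM against 24.9 and 23.8 CPM at 3m, S100b at 164 and 35.8 CPM against 482 and 449 CPM, and Nes at 75.7 and 265 CPM against 1.81 and 1.17 CPM, from 4 and 3 UMIs. The folds of these 3 genes without each library were not computed.

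Cycling and non-cycling astroglia-like cells were then compared within the postnatal libraries, with the library as a block. No factor was called in either direction by edgeR or DESeq2, while 6.01% of the 10986 genes tested by edgeR were called higher and 4.67% lower. At an unadjusted p of at most 0.05, 2 factors were higher and 1 was lower in edgeR. Sox9 was at 564 and 445 CPM in the cycling cells of postnatal replicates 1 and 2, against 958 and 979.8 CPM in non-cycling cells. It was lower in both libraries, with a log2 fold change of -0.92 (SE 0.18, adjusted p = 0.00909, edgeR) that missed the fold threshold, and it passed, at -1.11 (adjusted p = 0.000303, edgeR), when the limit for cycling was applied after thinning. The 12 astroglia markers moved with Sox9, at 7972 and 4199 CPM in cycling cells against 12854 and 9600 CPM, all 12 found in each sum, and their part in the difference of Sox9 was not tested. Sox11 was at 252 and 285 CPM in cycling cells against 153 and 197 CPM, higher in both libraries, with a log2 fold change of 0.66 (SE 0.16, adjusted p = 0.0257, edgeR). Sox4 was at 507 and 360.0 CPM in cycling cells, with most of its difference from non-cycling cells in postnatal replicate 1. Nfib (0.01, SE 0.17), Nfix (0.05, SE 0.16) and Sox8 (0.04, SE 0.22) lay near 0, and Nfia (-0.39, SE 0.18) and Sox2 (-0.37, SE 0.17) had lower values that were not called. Under library size alone the signs of Nfib and Sox8 turned, to -0.04 and -0.006. Cycling cells were deeper, with medians of 12068 and 25655 UMIs, and their sums were 384864 and 1902666 UMIs. None of the 8 relatives tested was called by edgeR in this comparison, and at an unadjusted p of at most 0.05, 0 were higher and 2 lower. Of 8 targets tested, Gfap alone was called, lower in cycling cells, at 189.7 and 15.2 CPM against 556 and 119 CPM. With cycling cells included in the comparison of ages, Nfia was no longer called (-0.89, adjusted p = 0.0127, edgeR).

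At 3m, oligodendrocyte-like cells were compared with non-cycling astroglia-like cells of the same libraries. Nfix and Sox8 were higher in oligodendrocyte-like cells, and Nfib, Sox9, Sox2, Sox4 and Sox11 were lower. So 2 of the 8 factors were called higher and 5 lower, with 18.6% and 25.8% of the 11482 genes tested called in those directions. These classes were separated by other marker genes, and many genes differ between them. The NFI genes went different ways. Nfix stood at 504 and 570.1 CPM in oligodendrocyte-like cells against 182 and 171 CPM in astroglia-like cells (log2 fold change 1.57, SE 0.10, adjusted p = 1.62e-10, edgeR). Nfib was at 163 and 173 CPM against 322 and 380.3 CPM (-1.10, SE 0.09, adjusted p = 5.48e-09, edgeR). Nfia, at 198 and 244 CPM, had a log2 fold change of -0.59 (SE 0.08, adjusted p = 9.34e-06, edgeR) that missed the fold threshold. Nfix was found in 59.3% and 68.3% of oligodendrocyte-like cells after thinning, against 33.6% and 25.8% of astroglia-like cells, and in 95.9% and 98.0% of oligodendrocyte-like cells before it.

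The SOX factors split in the same comparison. Sox8 was at 163 and 141 CPM in oligodendrocyte-like cells against 54.3 and 52.6 CPM in astroglia-like cells (log2 fold change 1.46, SE 0.11, adjusted p = 2.27e-09, edgeR). Sox9 was at 3.06 and 2.32 CPM against 649 and 632 CPM, and 12 of 561 and 10 of 295 oligodendrocyte-like cells held a UMI of it (log2 fold change -7.90, SE 0.15, adjusted p = 1.31e-16, edgeR). Sox2 was at 60.1 and 63.9 CPM in oligodendrocyte-like cells (log2 fold change -3.01, SE 0.10, adjusted p = 3.17e-14, edgeR). It was found in 9.58% and 14.5% of these cells after thinning and in 38.3% and 49.8% before. In endothelial-like cells of the same libraries, with median depths of 6570.0 and 5492.5 UMIs, Sox2 was found after thinning in 0 of 41 cells (exact 95% upper limit 8.60%) and 1 of 30 (upper limit 17.2%). Sox4 was at 2.34 and 1.63 CPM, from 13 and 7 UMIs. Sox11 had 1 UMI among 561 cells of 3m replicate 1 and 0 among 295 cells of 3m replicate 2, where its astroglia-like level was at least 31.3-fold higher by the limit of 3 counts in that library. Among the relatives, Sox10 was at 354 and 365 CPM, and Nfic was higher in oligodendrocyte-like cells (log2 fold change 1.39, SE 0.11, adjusted p = 7.10e-09, edgeR). These were the 2 relatives of 9 called higher, and Sox1, Sox3, Sox5, Sox6, Sox13 and Sox21 were the 6 called lower. Of 6 targets tested, Tubb3 was called higher and Fabp7, Gfap and Mmd2 were called lower.

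Oligodendrocyte precursor-like cells were set against non-cycling astroglia-like cells in 1 library of each age. The fit had the library as a block, 2 of the 8 factors were called higher and 2 lower, and 8.03% of the 10129 genes tested were called higher and 9.69% lower. Scaling mattered here. Under library size alone the median of all genes moved from -0.06 to 0.45, the share of calls that were higher went from 45.3% to 64.1%, and no factor was called lower. Sox8 was at 240.5 CPM in precursor-like cells of postnatal replicate 1 and 291 CPM in those of 3m replicate 1, against 52.6 and 54.3 CPM in astroglia-like cells (log2 fold change 1.79, SE 0.37, adjusted p = 0.00217, edgeR). Its 2 precursor-like sums were close to each other and both were above the astroglia-like sums. Sox4 was at 698 and 344 CPM against 286 and 31.7 CPM (log2 fold change 1.81, SE 0.51, adjusted p = 0.0186, edgeR), so it was lower at 3m in both classes. Sox11, at 257 and 124 CPM, was not called (0.73, SE 0.37, adjusted p = 0.231, edgeR). Without the library as a block the call of Sox4 was lost (log2 fold change 1.34, adjusted p = 0.514, edgeR). Of 9 relatives tested, Sox3, Sox6 and Sox10 were called higher and Sox1 lower. Of 8 targets tested, Tubb3 and Dcx, genes of young neurons, were called higher and Gfap and Mmd2 lower. The 12 neuron markers moved in the same direction as Sox4, Tubb3 and Dcx, at 391 and 461 CPM in precursor-like cells (9 and 8 found, Rbfox3 and Sp9 at 0 in both) against 47.2 and 116 CPM in astroglia-like cells, and their part in these differences was not tested.

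Sox9 differed sharply between the precursor-like sums. It was at 331 CPM in postnatal replicate 1, with a UMI in 29 of 50 cells, although 5 cells held 66 of its 143 UMIs. In 3m replicate 1 it had 0 UMIs in 45 cells, which allows up to 10.0 CPM, and its astroglia-like level there was at least 64.7-fold higher. Sox9 was called lower in precursor-like cells (adjusted p = 0.0157, edgeR), with no fold given because of that 0, and the call was lost in DESeq2 (adjusted p = 0.3704). In edgeR it was also lost with the stricter gate (adjusted p = 0.0598), without the library as a block (0.394) and under library size alone (0.0852). Sox2 was at 331 and 314 CPM against 809.7 and 511 CPM (log2 fold change -1.51, SE 0.51, adjusted p = 0.0492, edgeR), and this call was lost with the stricter gate (adjusted p = 0.0941, edgeR), without the library as a block (0.174) and under library size alone (0.175). In astroglia-like cells of both libraries the OPC markers were low (251 and 137 CPM summed), and precursor-like cells held 1165 and 2644 CPM of the 12 astroglia markers, against 12854 and 32768 CPM in astroglia-like cells. With 1 library per age, the difference between ages in precursor-like cells was not tested.

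The NFI genes had opposite CPM ratios in these libraries, precursor-like over astroglia-like. In postnatal replicate 1 the log2 ratio was -0.48 for Nfia, -0.81 for Nfib and -1.01 for Nfix. In 3m replicate 1 it was 0.53 for Nfia, 0.47 for Nfib and 0.64 for Nfix, but these turned to -0.16, -0.22 and -0.04 with TMM scaling within that library, while those of postnatal replicate 1 were then -0.75, -1.08 and -1.27. Thus the sign at 3m depended on the scaling, and the rank did not, with the lower ratio in the postnatal library under both. The precursor-like levels themselves were 529.5 and 418 CPM for Nfia, 331 and 445 CPM for Nfib and 252 and 284 CPM for Nfix, a narrower spread than between the astroglia-like sums of these libraries. In the fit over both libraries the fold changes of Nfia (-0.50, SE 0.49), Nfib (-0.69, SE 0.48) and Nfix (-0.70, SE 0.47) were not called, and that of Nfia was 0.02 under library size alone.

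**Figure D4:**
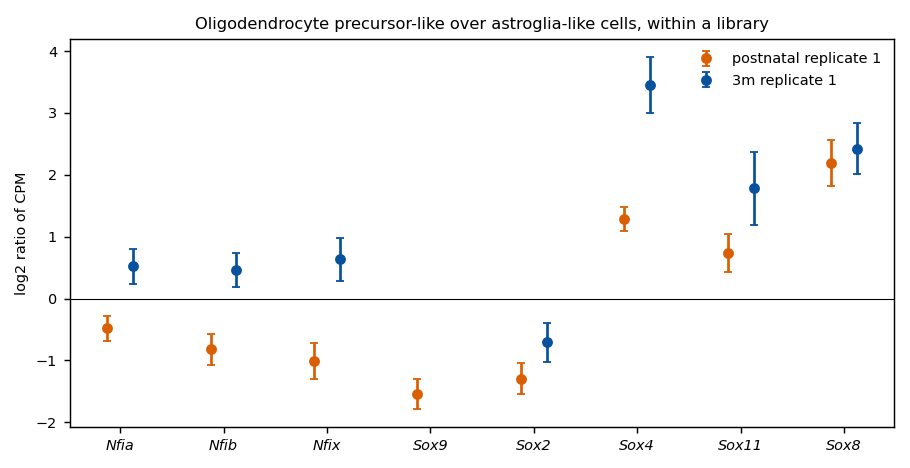
Log2 ratio of CPM, oligodendrocyte precursor-like over non-cycling astroglia-like cells, for each factor within postnatal replicate 1 and 3m replicate 1, with 95% exact intervals that cover counting error only and no TMM scaling. Nfia, Nfib and Nfix lie below 0 in the postnatal library and above 0 at 3m on this scale, and Sox9 at 3m is absent because precursor-like cells had 0 UMIs.

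Vascular and other classes held some of the factors and lacked others. Only sums of at least 10 cells were read, and they were small, so their values are given without a test. Sox4 was at 331 and 442 CPM in the 12 and 16 mural-like cells of the postnatal libraries and at 59.4 and 75.6 CPM in the 57 and 45 of the 3m libraries. In endothelial-like cells Sox4 was at 298 CPM in postnatal replicate 1 and at 33.5 and 82.8 CPM at 3m. The Sox4 levels of the ages did not overlap in either class, but for endothelial-like cells this rests on 1 postnatal library of 11 cells. The share of all genes without overlap was not computed for these classes. In astroglia-like cells 48.7% of all genes tested were lower in both 3m libraries. Other marker lists moved with age in these sums too. The 11 mural markers were at 2716 CPM in postnatal endothelial-like cells and at 8478 and 6264 CPM at 3m, with 9, 11 and 9 found. The 12 astroglia markers were at 1774 and 2439 CPM in postnatal mural-like cells and at 5326 and 5373 CPM at 3m, with 4, 11, 8 and 8 found. The 12 oligodendrocyte markers went from 95.7 CPM to 829 and 925 CPM at 3m in endothelial-like cells. In mural-like cells they went from 11.8 and 21.8 CPM to 340 and 350 CPM. Not every list rose, and the 7 fibroblast markers in mural-like cells went from 355 and 589 CPM to 297 and 336 CPM. The part of these lists in the Sox4 levels was not tested. Nfia was at 272 and 338 CPM in postnatal mural-like cells and at 232 and 284 CPM at 3m, where the ages overlapped. Nfix was low in mural-like cells, with 1, 9, 3 and 4 UMIs in the 4 libraries. In endothelial-like cells Nfix had 0 UMIs in 11 postnatal cells, which allows up to 11.04 CPM, and 97.9 and 79.2 CPM at 3m. Sox2 had 0 UMIs in 5 of the 7 vascular sums, and Sox8 at most 1 UMI in any of them. In endothelial-like cells Sox17 and Sox18, SoxF genes of vessels, stood at 158 and 298 CPM in postnatal replicate 1, at 371 and 531 CPM in 3m replicate 1 and at 392 and 587 CPM in 3m replicate 2.

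Neuron-like cells were read in postnatal replicate 2 only, where 10 cells gave 1380 CPM of Sox4 (95% exact Poisson interval 1183 to 1600), 1151 CPM of Sox11 (972 to 1354) and 1080.2 CPM of Nfib (907 to 1277). Each was above the level of the same gene in every other class. Sox8 had 0 UMIs in these cells. The 14 ependymal-like cells of 3m replicate 1 held Sox9 at 814 CPM (708 to 932) and Sox2 at 546 CPM (460.0 to 644). In astroglia-like cells of that library Sox9 was at 649 CPM, below that interval, and Sox2 at 511 CPM, within it. Sox8 had 2 UMIs in the ependymal-like cells. The 23 microglia-like cells of 3m replicate 1 held 1 UMI of Sox9, 0 of Sox2, Sox8, Sox11 and Nfib, 9 of Nfia and 11 of Nfix. Their 12 UMIs of Sox4 came to 99.7 CPM, against 31.7 CPM in the astroglia-like cells of that library. The 15 microglia-like cells of postnatal replicate 2 held 4 UMIs of Sox9 and 3 of Sox4.

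**Figure D5:**
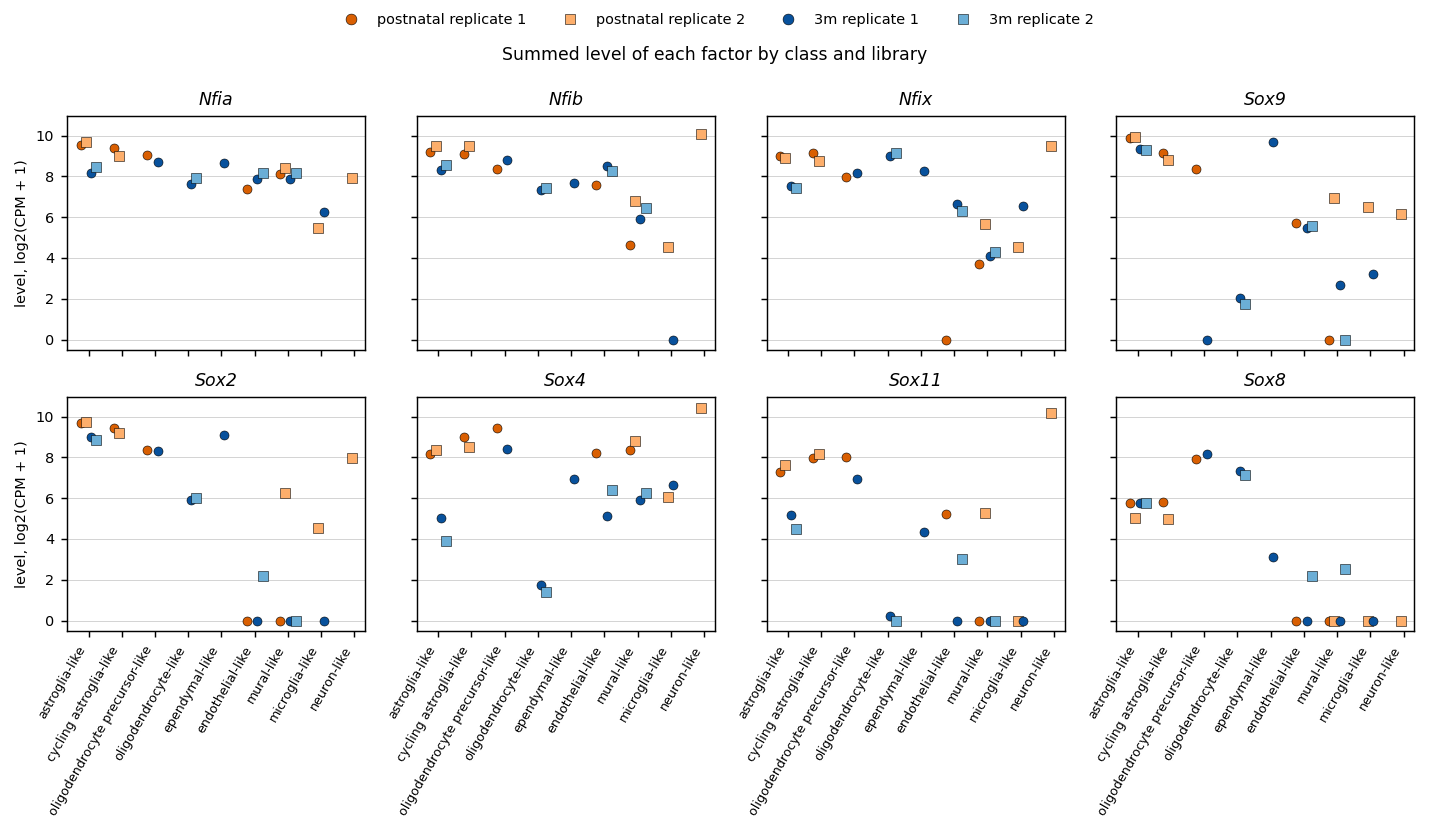
Summed level of each factor as log2(CPM + 1) on the y axis, by class on the x axis, with 1 point per library of at least 10 cells (orange postnatal, blue 3m). Sox9 and Sox2 are high in astroglia-like and ependymal-like cells and low in vascular cells, Sox8 is highest in precursor-like and oligodendrocyte-like cells, and Sox4 and Sox11 peak in neuron-like cells.

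The order of levels over classes differed from factor to factor. For Sox8 the precursor-like sums (240.5 and 291 CPM) were above the oligodendrocyte-like sums (163 and 141 CPM), and those were above the non-cycling astroglia-like sums (31.9 to 54.3 CPM), with no overlap between neighbours. For Nfix the oligodendrocyte-like sums at 3m (504 and 570.1 CPM) overlapped the postnatal astroglia-like sums (506 and 472 CPM), and the 3m astroglia-like sums (182 and 171 CPM) were lower than either. For Sox9 postnatal astroglia-like cells came first, followed by ependymal-like cells and 3m astroglia-like cells, and oligodendrocyte-like cells came near the end.

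The genes with the most similar pattern were found by Pearson correlation of log2(CPM + 1) over 20 sums of a class in a library, among 12766 genes, as a description without a test, since sums of a library share depth and age. For Sox8 these included Nkx2-2 (r = 0.95), a factor of the oligodendrocyte lineage, and Cdh20 (0.92). For Sox2 they were Npas3 (0.99), Dab1 (0.97) and Scrn1 (0.97). Sox9 was followed most closely by Ezr (0.94), which encodes ezrin, Gja1 (0.90), a connexin gene that is also 1 of the astroglia markers, and Mgst1 (0.89). For Sox4 they were Rcn1 (0.93), Pafah1b3 (0.92) and Marcks (0.90), and for Sox11 Kcnd2 (0.92) and Bex4 (0.91). Nfia was closest to Fgfbp3 (0.88), Fabp7 (0.88) and Ubtd2 (0.87), Nfib to Nt5m (0.95), Zdhhc21 (0.88) and Luc7l (0.87), and Nfix to Fez1 (0.90), Nudt2 (0.85) and Hif1an (0.85). Between the factors themselves r was highest for Nfix with Sox2 (0.78) and lowest for Sox4 with Sox8 (-0.26).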

How the data were processed

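The table that the authors deposited holds unnormalised counts (UMIs) for each gene symbol in each cell, with the runs of every library merged. Replicates were libraries, since cells of a library share their preparation. The submitters' processing notes name Cell Ranger, Seurat 3.1.1 and the mm10 build. The methods of the study describe 10x 3′ libraries of such cells, but not these libraries separately. Total depth per library ranged from 7185335 to 11501049 UMIs. No column was left unused.

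The 8 factors, the marker lists and the lists of relatives and targets were chosen with earlier results of these data known, and the scoring rule for classes was set after the files were seen. Marker genes were scaled to 10000 UMIs per cell, divided by their mean in the top 1% of cells, capped there, and averaged per list. Cells without a clear class stayed ungated. Mixed droplets with a score ratio of at least 2 would still pass the gate, and no doublet caller was run. Just inside the astroglia limit (score 2 to 2.5 times the next) were 5, 56, 3 and 3 cells, and just outside it (1.5 to 2) were 19, 54, 13 and 8. The genes named are the 8 factors, those lists, and the 3 genes closest to each factor in pattern, some of which are not reported here.

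Counts were summed per class and library and tested with edgeR 4.0.16 (filterByExpr, TMM, quasi-likelihood). The SE is the log2 fold change over the square root of F. Comparisons of classes had the library as a block. DESeq2 1.42.0, library size alone, no low-count filter, a stricter gate (5 markers, 4 times), leaving out libraries, and the fits with or without the replicate block were alternatives. Scripts were tested on simulated data. Same-numbered libraries of the ages are not stated to be paired. Intervals are exact at 95% and cover counting error only. Annotation came from GENCODE M21, and promoters from RefSeq, matched by symbol for 6 of the 8 factors, not for Nfib and Sox9.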

Additional observations from a re-analysis of the deposited data

Results flagged for a closer look

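The NFI genes were set apart because their CPM ratio of oligodendrocyte precursor-like over astroglia-like cells had opposite signs in the library of each age. The log2 ratio was -0.48 for Nfia, -0.81 for Nfib and -1.01 for Nfix in postnatal replicate 1, from 229, 143 and 109 precursor-like UMIs. It was 0.53 for Nfia, 0.47 for Nfib and 0.64 for Nfix in 3m replicate 1, from 125, 133 and 85 UMIs. The difference between ages was not tested, since each age had 1 library with enough precursor-like cells. With TMM scaling within the library the 3m values were -0.16, -0.22 and -0.04, so the opposite signs hold for CPM only.

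Postnatal replicate 2 and 3m replicate 2 shared 95 barcodes, and the 5 other pairs of libraries shared at most 2. Among filtered cells 46 of the smaller holders were in 3m replicate 2. Only 1 and 4 of them were non-cycling astroglia-like cells in postnatal replicate 2 and 3m replicate 2, and leaving them out changed none of the counts of called factors. No group held 4 or more libraries, so single libraries were not screened as outliers.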

How the results depend on the processing

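Among the values of the 8 factors under all alternatives, 288 kept their direction and, where tested, their side of the threshold. Another 16 lost a call, 6 gained one and 10 changed sign. Values of class comparisons with 1 library left out had no test. Of these, 8 moved by more than the SD of the values with each library left out. That SD came from the same values that it judged, so the rule was lenient. The cause of the changes was not tested. Between ages, only 1 of the 4 lower factors stayed called without cells holding oligodendrocyte marker UMIs, where 3843 genes could be tested. Leaving out 1 library gave 3 to 4 factors lower and 0 to 1 higher. Nfia was also not called with the stricter gate (-0.98) or with cycling cells included. The correlation of same-numbered deviations was 0.046, so replicate numbers were not taken to pair the ages, and the fit with the replicate block gave 0 higher and 4 lower.

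For precursor-like cells, the number of lower factors was 1 with DESeq2, 0 under library size alone, 0 with the stricter gate and 0 with no replicate block, which also gave 1 higher. Nfia turned to 0.020 under library size alone. For cycling cells, the adjusted p alone gave 1 higher and 1 lower, and the cycling limit after thinning gave 1 lower. Signs turned there for values near 0. Nfib was at -0.0053 with DESeq2, -0.036 under library size alone, -0.029 with no filter on low counts, and from -0.083 to 0.11 with 1 library left out. Nfix was at -0.047 with the stricter gate and from -0.0079 to 0.13 with 1 library left out. Sox8 was at -0.0064 under library size alone, -0.075 with no replicate block and -0.30 with the cycling limit after thinning. In oligodendrocyte-like cells the counts were 2 higher and 5 lower, and 6 lower by the adjusted p alone. Precursor-like cells came from 432471 and 299119 UMIs, which limits small differences there.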
